A study of Mus musculus with 4 samples.

Results

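Elastic fibre and lysyl oxidase genes were followed in RNA sequenced from lung smooth muscle cells of mice in which *Tet3* had been inactivated and of control mice. TET3 belongs to the dioxygenases that turn the methyl group of methylated cytosine in DNA into a hydroxymethyl group. The group comprised the 10 genes *Eln*, *Fbn1*, *Fbln1*, *Fbln2*, *Fbln5*, *Lox*, *Loxl1*, *Loxl2*, *Ltbp1* and *Mfap4*, taken by symbol from a table of 21462 genes. All 10 were in the table and all 10 were among the 16659 genes tested, those whose mean across the 4 libraries reached 10. There were 2 Tet3 mutant and 2 control libraries, all of the C57BL/6 strain. Each library is described as a separate animal. In the mutants the floxed *Tet3* gene was deleted by a tamoxifen-inducible Cre recombinase under the α-smooth muscle actin promoter, and cells were sorted from lung by a Cre-activated tdTomato reporter after removal of blood cells with CD45 and Ter-119 beads. The labels give the controls as WT, and the study's methods describe controls in general as mice without the floxed allele that carried the Cre, the reporter or both. The labels give no age, sex or time after tamoxifen for any library, and do not state tamoxifen for the controls. Sorting control cells by the Cre-activated reporter presupposes the Cre, the reporter and tamoxifen in the control animals too. In such bulk libraries, fewer cells of a type and less RNA per cell cannot be told apart.

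Elastic fibres let airways, alveolar walls and arteries recoil after they are stretched. Their core is elastin, secreted as the soluble monomer tropoelastin (*Eln*), which is laid down on a scaffold of fibrillin microfibrils (*Fbn1*) with the help of fibulins and is then made insoluble when copper-dependent lysyl oxidases convert lysine side chains so that they cross-link. Microfibrils also hold latent TGF-β through latent TGF-β-binding proteins such as LTBP1, and MFAP4 binds both elastin and fibrillin. Smooth muscle cells, myofibroblasts and fibroblasts are the main makers of elastic fibres in the lung.

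Levels are given in normalized counts, which had been scaled between libraries and rounded before deposit. A fold change compares mutants with controls on a log2(value + 1) scale, and its error is the moderated standard error from limma, fitted to all genes tested. The deposited totals ran from 6805272 to 7164573 per library, and the low values point to 6.32 M to 7.56 M reads assigned to genes. *Tet3* itself was at 1847 and 1926 in the controls and at 1534 and 1444 in the mutants, which is -0.34 ± 0.10 as a log2 fold change (limma adjusted p 0.681). These counts are summed over the gene, parts outside the deletion included, and check the labels only in part. Control replicate 2 stood apart from the other libraries. Among 10888 genes with a mean of at least 100, 387 were more than 2-fold from all 3 other libraries on the same side in control replicate 2, against 9 to 72 in each other library, and 0 of the 10 elastic fibre genes were among the 387. It was also the single library with *Ddx3y*, a Y-linked gene, above 0 (774) and with *Xist*, which is transcribed from the inactive X chromosome, at 2, against 5214 to 6781 elsewhere. By *Ddx3y* and *Xist*, control replicate 2 reads as male and the other libraries as female, though the labels give no sex. On this reading the controls were of both sexes and the mutants all female. The part of sex in the fold changes was not tested. Values without control replicate 2 are given beside the main results.

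The sorted cells carried markers of several cell types besides smooth muscle. Per kilobase of exon, the 10 smooth muscle markers had a median of 222 normalized counts, against 455 for the 10 fibroblast markers, 285 for the 8 endothelial markers, 310 for the 8 macrophage markers and 618 for the 8 alveolar type 2 markers. Adventitial fibroblast markers had a median of 259, lung myofibroblast markers 202, pericyte markers 105 and mesothelial markers 11.7. Such medians depend on the markers chosen and do not measure shares of cells. None of the markers in these lists was at 0 in any library. The smooth muscle gene *Myh11*, which encodes smooth muscle myosin heavy chain, was at 1330 and 2300 in the controls and at 2473 and 2249 in the mutants, while the fibroblast gene *Pdgfra* was at 5123 and 4449 in the controls and at 4821 and 4532 in the mutants. The levels given here are those of each library as a whole.

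All 10 genes were clearly expressed. Per kilobase of exon and as the mean of the 4 libraries, *Mfap4* was highest at 632 normalized counts, followed by *Loxl1* (550), *Fbn1* (455), *Fbln1* (394), *Eln* (288), *Ltbp1* (233), *Lox* (226), *Fbln2* (190), *Fbln5* (119) and *Loxl2* (108). Neighbours in this order overlapped in their library values, with the exception of *Fbln2* and *Fbln5*. *Fbln2* ran from 160 to 215 per kilobase and *Fbln5* from 80.9 to 135. Compared within each library, neighbours kept this order in every library, except *Eln* and *Ltbp1*, *Ltbp1* and *Lox*, and *Fbln5* and *Loxl2*. Together the 10 genes took 0.268% (replicate 1) and 0.224% (replicate 2) of the deposited total in the controls, and 0.314% and 0.274% in the mutants. *Fbn1* made up 27.6% to 31.4% of that sum in every library. The share of *Eln* was 9.19% and 13.1% in the controls and 14.9% and 12.1% in the mutants.

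**Figure D1:**
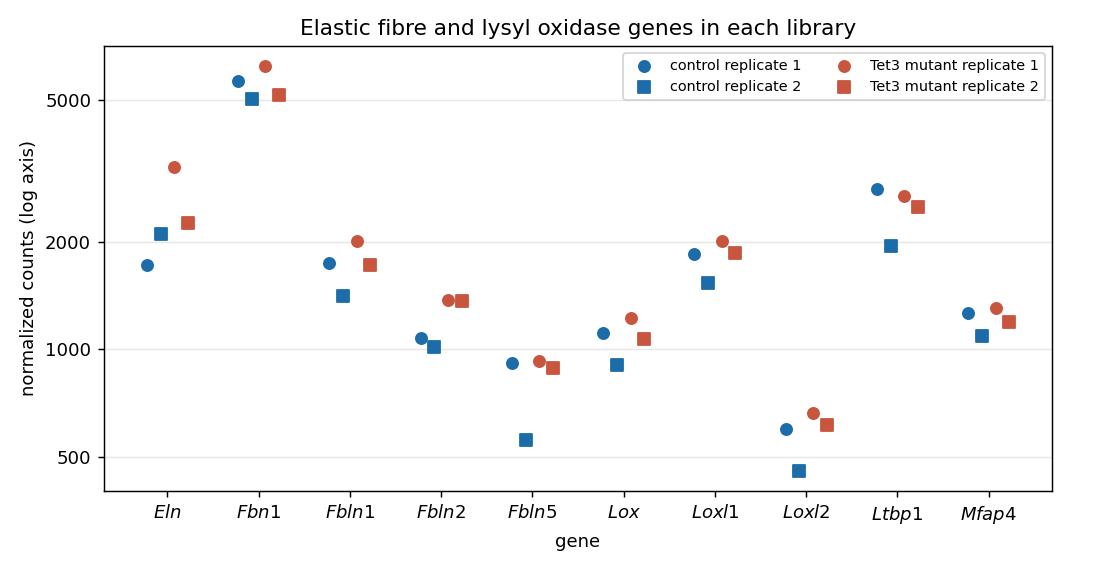
Normalized counts (log axis) of the 10 genes in each library, with blue for controls, red for Tet3 mutants, circles for replicate 1 and squares for replicate 2. Control replicate 2 is the lowest point for every gene except *Eln*, and both mutants lie above both controls for *Eln*, *Fbln2*, *Loxl1* and *Loxl2*.

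The sequences upstream of the start site were examined for CpG dinucleotides, the sites at which mammalian DNA is methylated and TET enzymes act. RefSeq promoter windows on GRCm38.p6 were matched by symbol for 5 of the 10 genes (*Fbn1*, *Fbln1*, *Fbln2*, *Fbln5* and *Ltbp1*). The 250 bases before the start nearest to the gene's 5′ end held 13 CpGs in *Fbn1*, 7 in *Fbln1*, 8 in *Fbln2*, 21 in *Fbln5* and 12 in *Ltbp1*. Of 32851 such windows of the genome, 31.5%, 46.3%, 43.0%, 16.3% and 33.5% held at least as many, in the same order, and the median was 6. For *Fbn1* and *Fbln2*, the window lay inside an annotated exon of the gene. The other 3 windows lay outside exons of their genes and are shown for that reason. For highly expressed contractile genes, the study reports the loss of hydroxymethylated cytosine in gene bodies and not at promoters. Gene bodies were not examined here. CpGs are in capitals, and each line reads 5′ to 3′ on the strand of the gene.
*Fbln1*, chr15:85205699-85205948, plus strand: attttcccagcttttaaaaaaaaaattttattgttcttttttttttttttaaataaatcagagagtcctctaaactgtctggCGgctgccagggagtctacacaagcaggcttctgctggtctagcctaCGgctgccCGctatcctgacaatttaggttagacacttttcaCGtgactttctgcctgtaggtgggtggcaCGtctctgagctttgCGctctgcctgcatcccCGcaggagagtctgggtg
*Fbln5*, chr12:101819120-101819369, minus strand: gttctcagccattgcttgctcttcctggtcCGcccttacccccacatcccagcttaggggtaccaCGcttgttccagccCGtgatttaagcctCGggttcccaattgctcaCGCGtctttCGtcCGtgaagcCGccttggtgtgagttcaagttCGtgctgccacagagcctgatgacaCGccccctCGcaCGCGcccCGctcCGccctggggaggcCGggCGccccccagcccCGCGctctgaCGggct
*Ltbp1*, chr17:75005279-75005528, plus strand: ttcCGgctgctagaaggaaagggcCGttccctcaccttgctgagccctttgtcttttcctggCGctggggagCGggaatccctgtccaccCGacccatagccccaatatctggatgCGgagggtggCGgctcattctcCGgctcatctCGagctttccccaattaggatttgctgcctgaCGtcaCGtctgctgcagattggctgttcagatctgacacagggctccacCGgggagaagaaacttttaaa
No methylation was measured in these libraries, and the counts describe sequence alone.

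To ask whether loss of *Tet3* was accompanied by a different level of elastic fibre genes, mutants were compared with controls. By limma, 0 of the 10 genes had an adjusted p under 0.05, where 0.0% of all genes tested did, and *Fbln2* was the 1 gene of the 10 to pass before adjustment, where 6.68% of the genes tested passed. The smallest adjusted p was 0.681, shared by *Eln* and *Fbln2*, and the largest was 0.884, for *Fbn1*. All 10 log2 fold changes were above 0, from 0.083 to 0.51, where 49.0% of all genes tested were above 0. The median over the 10 genes was 0.22, against -0.0069 over all genes tested. In 4 genes (*Eln*, *Fbln2*, *Loxl1* and *Loxl2*) both mutants were above both controls, a pattern found in 19.6% of all genes tested, and in the other 6 the groups overlapped. In either direction, 39.0% of all genes tested had groups that did not overlap. Without control replicate 2 the median fell to 0.055 and 6 of the 10 fold changes stayed above 0. Without control replicate 1 the median was 0.38 and 5 of the 10 passed before adjustment, as did 3366 of the 16659 genes tested.

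**Figure D2:**
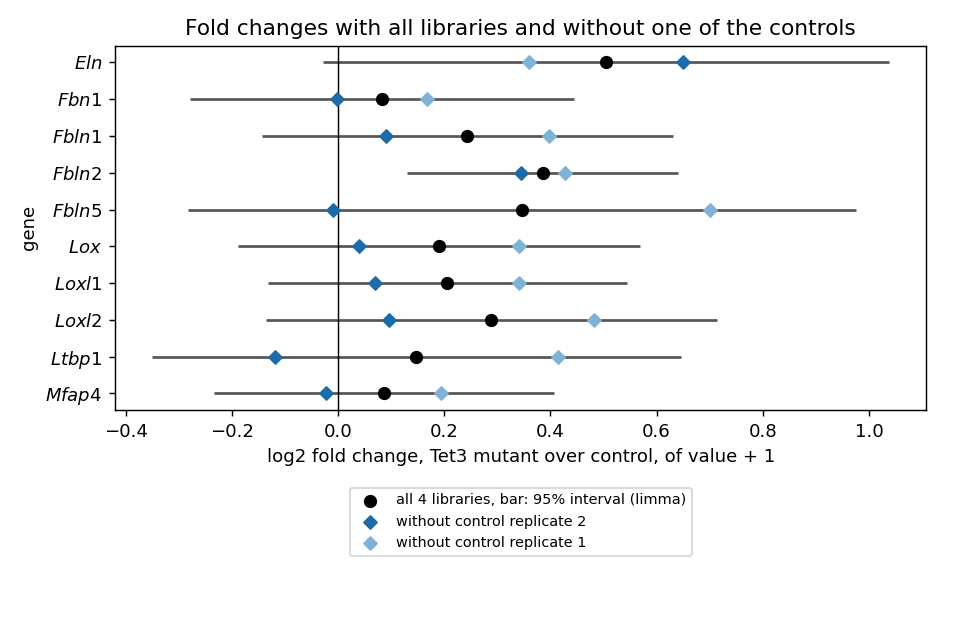
Log2 fold changes of the 10 genes (x axis, mutants over controls, of value + 1) with all 4 libraries (black, bars are 95% intervals from limma), without control replicate 2 (dark blue) and without control replicate 1 (light blue). The interval lies above 0 for *Fbln2* alone, and leaving out control replicate 2 brings every gene but *Eln* closer to 0 or below it.

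*Eln* encodes tropoelastin, the monomer of the elastic core (ENSMUSG00000029675, GRCm38 chromosome 5, 134702593 to 134747323, minus strand). The controls had 1724 (replicate 1) and 2108 (replicate 2) normalized counts, and the mutants had 3238 (replicate 1) and 2263 (replicate 2). Both mutants were above both controls, although mutant replicate 2 exceeded control replicate 2 only slightly and the mutants lay further from each other than the controls did. The means were 1916 ± 272 in controls and 2750.5 ± 689 in mutants (SD, n = 2 each), a difference of 43.6%. The log2 fold change was 0.51 ± 0.21 (standard error), with a 95% interval from -0.027 to 1.04, an unadjusted p of 0.0588 and a limma adjusted p of 0.681. It stayed above 0 without each library in turn, with 0.25 as its lowest value, when mutant replicate 1 was left out, and 0.76 as its highest, when mutant replicate 2 was. The profile of *Eln* differed from that of the other 9 genes, since its lowest library was control replicate 1.

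Among genes with a mean of at least 100, those nearest to *Eln* in centred log2 profile over the 4 libraries were *Plce1* (root-mean-square difference 0.043), *Lmcd1* (0.043) and *Ulk4* (0.057). *Plce1* was at 511 and 609 in the controls and at 900 and 680 in the mutants. The nearest of the elastic fibre genes to *Eln* was *Fbln2*, at 0.23, and the farthest was *Fbln5*, at 0.40. With only 4 libraries compared over 10887 genes, such closeness is a description of these libraries.

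The fibrillin gene *Fbn1*, whose product polymerizes into the microfibril scaffold, had the highest counts of the group (ENSMUSG00000027204, chromosome 2, 125300594 to 125507993). It was at 5663 and 5037 in the controls and at 6217 and 5146 in the mutants, so that the groups overlapped. On the log2 scale the change was 0.083 ± 0.14 (limma adjusted p 0.884), with a 95% interval from -0.28 to 0.44. *Mfap4*, which encodes a fibrinogen-related protein of microfibrils (ENSMUSG00000042436, chromosome 11, 61485431 to 61488900), was at 1268 and 1091 in the controls and at 1309 and 1191 in the mutants. The change was 0.086 ± 0.13 on the log2 scale, with an interval from -0.23 to 0.41. *Ltbp1*, which tethers latent TGF-β to microfibrils (ENSMUSG00000001870, chromosome 17, 75005568 to 75392512), was at 2817 and 1946 in the controls and at 2685 and 2505 in the mutants. Both mutants lay between the controls, which differed from each other by 1.45-fold. None of these microfibril genes kept a direction when libraries were left out. Without control replicate 2, the log2 fold changes were -0.0017 for *Fbn1*, -0.022 for *Mfap4* and -0.12 for *Ltbp1*.

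Fibulins are secreted calcium-binding proteins that bridge elastin, fibrillin and cells. *Fbln2* (ENSMUSG00000064080, chromosome 6, 91212455 to 91272540) was the gene of the group in which replicates were closest. It was at 1078 and 1018 in the controls and at 1372 and 1366 in the mutants, and the gap between the groups was larger than the spread within either. The means were 1048 ± 42.4 and 1369 ± 4.24 (SD, n = 2 each), a difference of 30.6%. On the log2 scale the difference was 0.39 ± 0.10 (95% interval 0.13 to 0.64), with an unadjusted p of 0.0114 and a limma adjusted p of 0.681. Leaving out 1 library at a time gave 0.34 to 0.43, with an unadjusted p of 0.0844 without mutant replicate 1 and of 0.0802 without mutant replicate 2. *Fbln2* lies on chromosome 6, as does *Tet3* (83362373 to 83459084). A further lysyl oxidase gene, *Loxl3*, lies nearer to *Tet3* on that chromosome (83034173 to 83052562). *Loxl3* was at 284 and 225 in the controls and at 340 and 316 in the mutants, with a limma adjusted p of 0.681. Any bearing of position on these levels was not tested.

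*Fbln5*, whose product binds elastin and integrins and is needed for elastic fibre assembly (ENSMUSG00000021186, chromosome 12, 101746565 to 101819055), was at 916 and 559 in the controls and at 931 and 889 in the mutants. Control replicate 1 lay between the mutants and control replicate 2 was lower than all others. The log2 fold change of 0.35 ± 0.25 therefore became -0.0099 without control replicate 2 and 0.70 without control replicate 1. *Fbln1*, a fibulin of basement membranes and elastic fibres (ENSMUSG00000006369, chromosome 15, 85205949 to 85286535), was at 1745 and 1411 in the controls and at 2007 and 1721 in the mutants. A log2 fold change of 0.24 ± 0.15 became 0.091 without control replicate 2.

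Lysyl oxidases were measured by 3 genes of the group. *Lox* (ENSMUSG00000024529, chromosome 18, 52516067 to 52529867) was at 1113 and 903 in the controls and at 1222 and 1072 in the mutants. *Loxl1*, whose product is directed to elastin by fibulin-5 (ENSMUSG00000032334, chromosome 9, 58287738 to 58313186), was at 1846 and 1530 in the controls and at 2019 and 1861 in the mutants. *Loxl2*, whose product also cross-links type IV collagen (ENSMUSG00000034205, chromosome 14, 69609068 to 69695834), was at 598 and 457 in the controls and at 665 and 614 in the mutants. In all 3, mutant replicate 1 was highest and control replicate 2 lowest. Control replicate 1 lay between the mutants for *Lox*, and below both for *Loxl1* and *Loxl2*. Their log2 fold changes were 0.19 ± 0.15, 0.21 ± 0.13 and 0.29 ± 0.17, with limma adjusted p of 0.735, 0.709 and 0.690. Without control replicate 2 these fold changes were 0.040, 0.070 and 0.095.

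The libraries of the same group differed in a shared way. Control replicate 2 was the lowest of the 4 libraries in 9 of the 10 genes, where it was lowest in 33.1% of all genes tested. It was the highest in 0 of 10, against 33.2%. Tet3 mutant replicate 1 was the highest in 9 of 10, where it was highest in 20.7%. Both held in 8 of 10 genes, against 10.6% of all genes tested. *Eln* (lowest in control replicate 1) and *Ltbp1* (highest in control replicate 1) were the exceptions. Genes of 1 library are not independent of each other, and these shares describe the 4 libraries. The genes nearest to the mean profile of the 10, outside the group, were *Slc35d2* (root-mean-square difference 0.0096), *Col16a1* (0.011) and *C1s1* (0.013). *Col16a1*, a collagen gene, was at 1093 and 909 in the controls and at 1279 and 1113 in the mutants, and *C1s1*, a complement protease gene, was at 1423 and 1163 in the controls and at 1595 and 1434 in the mutants.

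The summed markers of fibroblasts, adventitial fibroblasts and endothelium followed this pattern, lowest in control replicate 2 and highest in mutant replicate 1. Those of the other lists did not. The summed fibroblast markers were 25878 and 22932 in the controls and 27496 and 24339 in the mutants, with control replicate 2 lowest in 7 of 10 markers. The summed markers of adventitial fibroblasts were 8273 and 6601 in the controls and 8919 and 8823 in the mutants, with control replicate 2 lowest in 8 of 8. Endothelial markers summed to 11238 and 9950 in the controls and to 11588 and 10677 in the mutants. Alveolar type 2 markers ran the other way, with sums of 15158 and 22798 in the controls and 10661 and 13599 in the mutants, and control replicate 2 highest in 8 of 8. Smooth muscle markers (5382 and 7043 in the controls, 8286 and 7949 in the mutants), pericyte markers (4578 and 4844, then 6532 and 5633) and lung myofibroblast markers (5583 and 8057, then 7563 and 8035) were lowest in control replicate 1, as was *Eln*. Macrophage markers summed to 6568 and 6270 in the controls and to 7382 and 8093 in the mutants, and mesothelial markers to 1116 and 699 and to 836 and 923. Genes induced by tissue dissociation summed to 8785 and 10988 in the controls and to 9280 and 6741 in the mutants. The part of these cell types and of dissociation in the levels of elastic fibre genes was not tested.

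**Figure D3:**
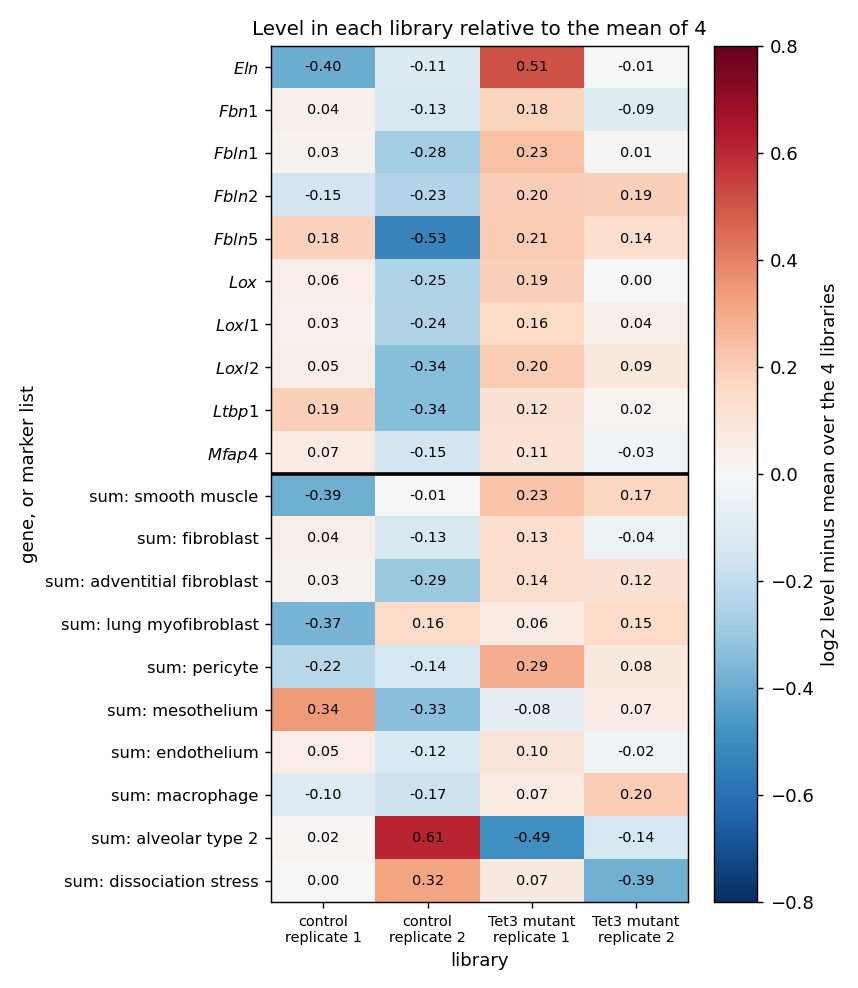
Log2 level of each gene (top 10 rows, of value + 1) and of each summed marker list (lower 10 rows) in the 4 libraries, minus its mean over the libraries (color scale, red above and blue below the mean). Control replicate 2 is lowest for the fibulins, lysyl oxidases and adventitial fibroblast markers and highest for alveolar type 2 markers, and *Eln* and smooth muscle markers are lowest in control replicate 1.

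Set against the summed fibroblast markers of the same library, both mutants were above both controls in 6 of the 10 genes (*Eln*, *Fbln1*, *Fbln2*, *Lox*, *Loxl1* and *Loxl2*), as in 12.7% of all genes tested, and below both in 0 of 10, against 22.3%. The other 4 overlapped. Per 1000 counts of these markers, *Mfap4* was at 49.0 and 47.6 in the controls and at 47.6 and 48.9 in the mutants, and *Fbn1* was at 219 and 220 in the controls and at 226 and 211 in the mutants. *Fbln2* was at 41.7 and 44.4 in the controls and at 49.9 and 56.1 in the mutants. *Eln* was at 66.6 and 91.9 in the controls and at 118 and 93.0 in the mutants, where mutant replicate 2 and control replicate 2 were close. *Loxl1* was at 71.3 and 66.7 in the controls and at 73.4 and 76.5 in the mutants. *Lox* was at 43.0 and 39.4 in the controls and at 44.4 and 44.0 in the mutants. *Loxl2* was at 23.1 and 19.9 in the controls and at 24.2 and 25.2 in the mutants. In *Loxl1*, *Lox* and *Loxl2* the lower mutant was close to control replicate 1. When all libraries were scaled to the summed fibroblast markers, 8 of the 10 fold changes stayed above 0 and 0 of 10 had an unadjusted p under 0.05 by limma. Per 1000 counts of smooth muscle markers, in contrast, *Eln* was at 320 and 299 in the controls and at 391 and 285 in the mutants, and *Fbln2* at 200.3 and 145 in the controls and at 166 and 172 in the mutants, so that the groups overlapped for both. Both mutants were above both controls on this scale in 0 of the 10 genes (3.06% of all genes tested) and below both in 0 of 10 (56.5%). Scaling to smooth muscle markers left 1 of the 10 fold changes above 0. It also moved the median of all genes tested to -0.40, since the summed smooth muscle markers were themselves higher in both mutants. The median log2 fold change of these markers was 0.49. For *Acta2* and *Cnn1*, which are among them, the study reports more reads but less full-length mRNA after loss of *Tet3*. Counts summed over a gene do not separate full-length from partial transcripts, in these markers or in the elastic fibre genes.

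A further 47 genes, listed here as elastic fibre pathway genes, were all in the table and tested. By limma 0 of 47 had an adjusted p under 0.05, and 4 had an unadjusted p under 0.05, all 4 higher in the mutants (3.83% of all genes tested) and 0 lower (2.85%). That count of 4 changed when 1 library was left out. It was 22 without control replicate 1, when 3366 of all genes tested passed, 4 without control replicate 2 (894 genes), 1 without mutant replicate 1 (273 genes) and 2 without mutant replicate 2 (414 genes). Fold changes were above 0 in 34 of 47, and in 28 of 47 without control replicate 2. Their median of 0.16 was 0.052 without control replicate 2 and 0.25 without control replicate 1. In 20 genes both mutants were above both controls, and in 4 they were below, where the shares among all genes tested were 19.6% and 19.5%. Control replicate 2 was the lowest library in 28 of 47 and the highest in 8, where the shares among all genes tested were 33.1% and 33.2%.

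Of the 4 genes with an unadjusted p under 0.05, *Fbln7*, a fibulin family member, was at 58 and 37 in the controls and at 155 and 126 in the mutants. The change was 1.57 ± 0.32 on the log2 scale, from low counts, and 1.25 to 1.89 with 1 library left out at a time. *Vcan* encodes versican, a proteoglycan that binds fibrillin and fibulins. It was at 1372 and 920 in the controls and at 1645 and 1595 in the mutants. *Mmp9*, a gelatinase that can degrade elastin and is abundant in neutrophils and macrophages, was at 372 and 296 in the controls and at 593 and 514 in the mutants. *Tgfb3*, one of the ligands held in the matrix, was at 1013 and 910 in the controls and at 1262 and 1203 in the mutants. In each of these genes both mutants were above both controls, at log2 fold changes of 0.53 for *Vcan*, 0.73 for *Mmp9* and 0.36 for *Tgfb3*, and all 4 genes had a limma adjusted p of 0.681. *Vcan* depended on the controls, with 0.24 without control replicate 2 and 0.82 without control replicate 1, while *Mmp9* ranged from 0.57 to 0.90 and *Tgfb3* from 0.28 to 0.44 over the 4 fits without 1 library.

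By listed role, the 12 further genes placed under microfibrils had a median log2 fold change of 0.043, with 8 above 0. They include *Mfap1a* (-0.26), *Mfap1b* (0.066), *Mfap3* (0.017) and *Mfap3l* (-0.98), whose place in microfibrils was not examined, so this median describes the list. The most abundant of the 12, *Ltbp4*, was at 3926 and 3858 in the controls and at 4168 and 3740 in the mutants. Its relative *Ltbp2* was at 994 and 1571 in the controls and at 2374 and 1586 in the mutants, the same order of libraries as *Eln*. *Ltbp2* is outside the naming rule, as are *Postn*, *Fbn2*, *Mfap1a*, *Mfap1b*, *Mfap3*, *Mfap3l*, *Loxl3*, *Itgb6*, *Bmp1* and *Thsd4*. All of these were chosen after their values were seen. *Postn*, the gene of periostin, also followed that order, with 723 and 1109 in the controls and 1514 and 1168 in the mutants. The 10 genes of fibulins and fibre assembly had a median of 0.17, with 8 above 0, and the most abundant, *Tnxb* (tenascin-X), was at 7403 and 6274 in the controls and at 7097 and 6196 in the mutants. The 11 genes of cross-linking and its cofactors had a median of 0.048, with 8 above 0, and *Fn1* (fibronectin) was the most abundant at 6556 and 5741 in the controls and 6466 and 5941 in the mutants. The 8 genes of elastin uptake and breakdown had a median of 0.17, with 6 above 0, and *Ctsa*, the protective protein of the elastin receptor complex, was at 959 and 850 in the controls and at 942 and 1040 in the mutants. The 6 genes of TGF-β and its integrins had a median of 0.21, with 4 above 0, and *Itgav* was at 1624 and 1558 in the controls and at 1557 and 1578 in the mutants.

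**Figure D4:**
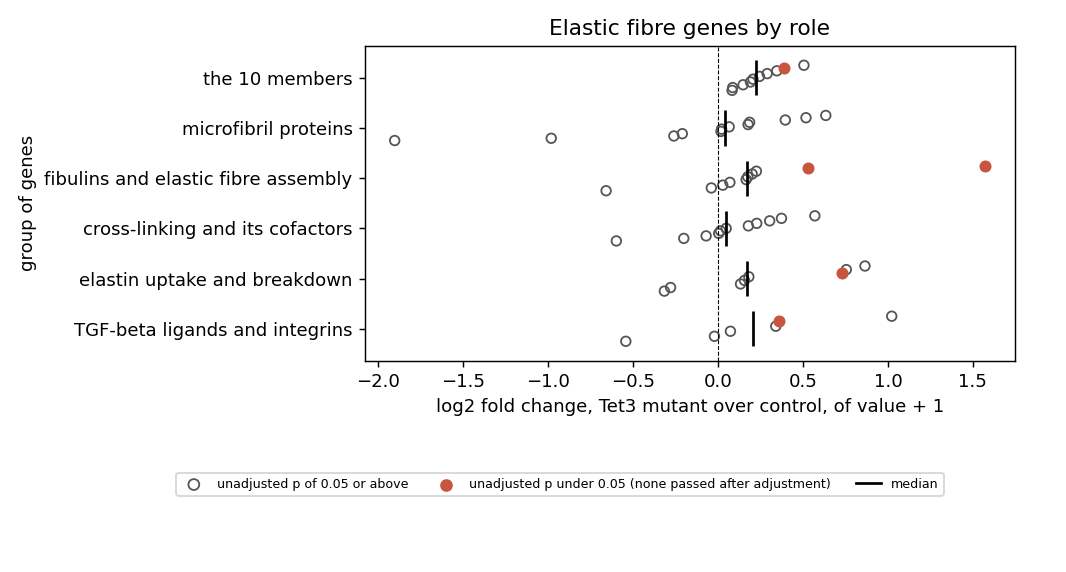
Log2 fold changes (x axis, mutants over controls, of value + 1) of the 10 genes and of the 47 further genes by listed role, 1 point per gene, with the median of each group as a black line. Filled red points are the 5 genes with an unadjusted p under 0.05, 1 among the 10 and 4 among the 47, all above 0, and none passed after adjustment.

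Some pathway genes went in the opposite direction, with control replicate 2 highest. That held in 8 of 47, below the 33.2% of all genes tested, and the 5 given here were picked from them. *Bmp1*, which encodes the proteinase that activates pro-lysyl oxidase, was at 735 and 1743 in the controls and at 784 and 712 in the mutants. *Thsd4* (also *Adamtsl6*), which promotes fibrillin assembly, was at 662 and 2086 in the controls and at 745 and 743 in the mutants. The fetal fibrillin gene *Fbn2* was at 23 and 153 in the controls and at 10 and 23 in the mutants, the epithelial integrin gene *Itgb6* at 63 and 175 in the controls and at 60 and 86 in the mutants, and *Mfap3l* at 367 and 655 in the controls and at 181 and 339 in the mutants. Control replicate 2 was the highest library for all 5, as it was for alveolar type 2 markers. *Bmp1* lies 714 bases from *Sftpc*, the surfactant protein C gene on the same strand, which was at 825 and 1254 in the controls and at 904 and 780 in the mutants. Their relation to these epithelial markers was not tested.

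Annotated neighbours could bear on some values, as the use of strand in counting is not given in the sources used here. *Mfap4* shares 89 exonic bases with *Mapk7* on the opposite strand, which was at 400 and 328 in the controls and at 325 and 342 in the mutants. *Fbn1* shares 2442 exonic bases with *Gm9913* on the opposite strand, listed at 17 to 24 in every library, and *Eln* shares 267 with the antisense gene *Gm30003*, listed at 8 to 14. *Loxl2* shares 301 with the antisense gene *Gm27177*, which is not among the genes listed, and *Lox* shares 30 with *AC161119.1*, listed at 2 to 4. Reads that fell on more than 1 gene were left out of the deposited counts. Reads from shared bases may therefore be missing from *Fbn1*, *Eln*, *Mfap4*, *Loxl2* and *Lox* if strand was not used. The low values of their partners set no limit on this. The levels per kilobase, and the places of *Fbn1* and *Loxl2* in their order, carry that uncertainty, which was not tested.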

How the data were processed

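RNA from sorted lung smooth muscle cells of 2 control and 2 Tet3 mutant animals was ribosome-depleted and prepared as stranded libraries. Per the labels and the study's methods, the authors trimmed reads with Trimmomatic 0.36, aligned them with STAR 2.6.0c to mm10 (GRCm38), counted uniquely assigned exonic reads with featureCounts (Subread 1.6.0) and normalized the counts by DESeq2. What was deposited is treated as a score here: normalized counts rounded to whole numbers, to which no count model was applied. Scaling factors, and from them reads per library, were estimated from the frequency of low values, a step tested on simulated data.

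Genes with a mean of at least 10 were compared on log2(value + 1) with limma 3.58.1 in R 4.3.3 (eBayes with a mean-variance trend, Benjamini-Hochberg adjustment, threshold 0.05). Groups and replicate numbers come from the labels, which pair no animals. Exon lengths are merged GENCODE M21 exons. Alternatives were other pseudocounts, filters, scalings, no trend, a replicate block and leaving out each library. Scaling to marker sums was added after the data were seen.

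The genes and lists were chosen with earlier results of these data known. Named were the 10 genes, pathway genes with an unadjusted p under 0.05, the most abundant gene of each role, the library checks and the 3 nearest profiles. *Adamtsl6* was read under its current symbol *Thsd4*.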

Additional observations from a re-analysis of the deposited data

How the results depend on the processing

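With 2 libraries per group, power is low, and the table gives no molecular identifiers, so counting error is a lower bound. Adding 0.5 or 8 in place of 1, requiring a mean of 1 or 50, no filter (the same genes as a mean of 1), TMM factors, equal totals, no trend and the replicate block left 0 of the 10 genes and 0 of the 47 pathway genes called and kept all 10 fold changes above 0. Without the trend 1 gene of the table was called, and 2 were when scaled to fibroblast markers. Equal totals added *Eln* to the genes with an unadjusted p under 0.05 (p of 0.0348) and turned *Tnxb* to 0.0090 and *Itgav* to 0.027. The causes were not tested.

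Replicate numbers 1 and 2 occur in both groups. Across 16659 genes, deviations of same-numbered libraries from their group means had a Pearson correlation of 0.13, which with 2 pairs does not establish a pairing. With the replicate block, 0 of the 10 genes were called, *Fbln2* had an unadjusted p of 0.0193, the median stayed at 0.22, 0 pathway genes and 0 genes of the table were called, and 9 pathway genes instead of 4 had an unadjusted p under 0.05. That count was 2 without the trend, 7 with equal totals, 6 scaled to fibroblast markers and 8 scaled to smooth muscle markers.

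Fits without 1 library assume that the lone library of a group varies like the others. The median of the 10 genes ranged from 0.055 to 0.38 and that of the pathway genes from 0.052 to 0.25, and 0 genes were called in any. Of the 10 genes, 6 kept their direction in all 4 fits. The others ranged from -0.054 to 0.22 (*Fbn1*), -0.0099 to 0.70 (*Fbln5*), -0.12 to 0.41 (*Ltbp1*) and -0.022 to 0.19 (*Mfap4*), and of further genes *Ltbp4* ranged from -0.057 to 0.099, *Tnxb* from -0.16 to 0.080, *Fn1* from -0.081 to 0.11 and *Itgav* from -0.051 to 0.0087.

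Scaled to fibroblast markers, the reversed values were -0.0039 (*Fbn1*), -0.00048 (*Mfap4*), -0.066 (*Ltbp4*) and -0.072 (*Fn1*). Scaled to smooth muscle markers, the median was -0.17 for the 10 genes and -0.24 for the pathway genes, with 285 genes of the table and 1 pathway gene called, and the reversed values were -0.32 (*Fbn1*), -0.15 (*Fbln1*), -0.012 (*Fbln2*), -0.052 (*Fbln5*), -0.21 (*Lox*), -0.19 (*Loxl1*), -0.11 (*Loxl2*), -0.25 (*Ltbp1*), -0.31 (*Mfap4*), -0.039 (*Tgfb3*), -0.38 (*Ltbp4*), -0.38 (*Fn1*) and -0.27 (*Ctsa*). This scaling moved the median of all genes tested to -0.40.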
